A study of Mus musculus with 6 samples.

Results

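The heat shock protein and J-domain cochaperone genes of the mouse were described in a leukemia model and in normal pro-B cells. Members were all table entries whose symbol begins with Hspa, Hspb, Hspd, Hspe, Hsph, Dnaja, Dnajb or Dnajc and a digit, or with Hsp90a or Hsp90b. This gave 78 of 33924 genes, of which 6 are pseudogene entries. Hspbp1 and Hspbap1 share the letters but are not small heat shock proteins, and were not counted as members. RNA sequencing covered 3 groups of 2 libraries each, all from total RNA of mouse bone marrow. Leukemia 1 and leukemia 92 are primary leukemias of genotype Mll-Af4/ N-RasG12D, and the control group holds wild-type pro-B cells sorted as B220+CD43+IgM-. To make the leukemias, lineage-depleted marrow of Mll-Af4 mice, 6 to 8 weeks old, was sorted for c-Kit and Sca1, and the double-positive cells were kept overnight in lymphoid medium with IL7 and further cytokines. They were transduced with an MSCV-cre-IRES-TdTomato retrovirus, which both delivers Cre and marks the cells, then with an N-RasG12D retrovirus. Of these cells, 250000 were injected per recipient, after 900 rads, together with 200000 wild-type helper marrow cells. Leukemia samples can therefore hold normal cells of the helper graft or the host. The sources used here give no strain, no sex and no age of the pro-B donors. The pro-B cells went through neither transduction nor transplantation, so effects of these steps and of the leukemia cannot be told apart.

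Heat shock proteins are molecular chaperones that keep other proteins folded. HSP70 proteins bind unfolded stretches in a cycle driven by ATP. J-domain proteins of the DNAJA, DNAJB and DNAJC classes bring clients to HSP70 and start ATP hydrolysis, while HSP110 proteins release the nucleotide. HSP90 finishes the folding of kinases and receptors, HSPD1 with HSPE1 forms the folding chamber of mitochondria, and small heat shock proteins of the HSPB class hold unfolded clients without ATP. In the cytosol the stress-inducible members are switched on by heat shock factor 1. In the endoplasmic reticulum (ER) HSPA5, also called BiP, HSP90B1, also called GRP94, and their J proteins serve secreted and membrane proteins and are induced by the unfolded protein response. BiP was first described as a partner of immunoglobulin heavy chains in pre-B cells.

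The libraries held 22153444 to 27444759 counts in genes, and 3 counts in 1 library corresponded to 0.111 to 0.140 CPM. CPM are counts scaled to 1000000 in a TMM-scaled library. Replicates are not stated to be separate animals, so the spread between them, and every p-value, may be technical. Replicate 2 of leukemia 1 stood apart. A list of 13 granulocyte genes, such as S100a8 and Mpo, summed to 16487 CPM there, against 183 in replicate 1 of the same leukemia, 457 to 807 in leukemia 92 and 425 to 450 in pro-B cells, and no gene of the list was at 0 in any library. Among tested members with a count in both replicates, 14 of 62 differed by more than 2-fold between the replicates of leukemia 1, against 1 of 61 in leukemia 92 and 1 of 62 in pro-B cells. The 12 pro-B markers, such as Igll1, summed to 5267 to 6239 CPM in leukemia and 4969 to 5827 in pro-B cells. Beneath these sums single markers moved both ways, with 6 positive and 6 negative log2 changes against pro-B cells. Cd79a stood at 992 to 1442 CPM in leukemia and 412 and 450 in pro-B cells. Rag1 stood at 10.4 to 73.0 CPM against 319 and 360, and Rag2 at 1.77 to 6.70 against 37.4 and 47.3. Dntt, the terminal transferase of early lymphoid cells, stood at 604 to 969 CPM in pro-B cells and at 0 to 1.11 CPM in leukemia. The pro-B libraries also held more transcripts of other cells. The 10 T and NK markers summed to 517 to 521 CPM there against 5.65 to 46.8 in leukemia. The 8 plasmacytoid dendritic markers summed to 3561 to 4024 against 434 to 544 CPM, and the 8 erythroid markers to 62.8 to 143 against 1.23 to 3.73 CPM. Ncr1, Cd3e, Cd3g, Gzma, Klk1, Hba-a1 and Hba-a2 were among the markers at 0 in 1 or more leukemia libraries, and no marker of these 3 lists was at 0 in a pro-B library. Single markers did not all follow the sums. Cd3e and Cd3g reached 3.84 and 4.88 CPM in leukemia 1 replicate 2, above both pro-B libraries. In pro-B cells Cd3e stood at 2.67 and 1.91 CPM and Cd3g at 3.41 and 4.60. Cox6a2 of the dendritic list overlapped, at 35.0 to 94.7 CPM in leukemia and 34.0 and 44.7 in pro-B cells. The part of any of these cells in the results on single members was not tested, and in bulk samples fewer cells of a type and less RNA per cell cannot be told apart.

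Members made up 1.28% and 1.36% of gene counts in pro-B cells, 1.19% and 1.41% in leukemia 1, and 0.939% and 0.974% in leukemia 92. Of the 78 members, 73 had at least 1 count and 63 passed the filter on low counts in both comparisons. Dnajc22, Dnajc5g, Hspb3, Dnaja1-ps and Hspe1-ps4 had 0 counts throughout, and none of the 15 members that did not pass exceeded 0.555 CPM in a library. Between genes, levels were compared as CPM per kilobase of exon, with exon lengths from GENCODE M21. On this scale the constitutive cytosolic chaperones led in pro-B cells. Hsp90ab1, the constitutive HSP90, had a mean level of 1286 CPM per kilobase, and Hspa8, the constitutive HSP70, had 583. They were followed by Hsp90b1 at 294, Hspa5 at 252, Hsp90aa1 (the inducible HSP90) at 241, Hspd1 at 191, Hspe1 at 166 and Hspa9 (the mitochondrial HSP70) at 156 CPM per kilobase. Neighbours in this order did not overlap between the pro-B libraries, except for Hspa5 with Hsp90aa1 and Hspa9 with Dnajc7, which stood next at 155 CPM per kilobase. In leukemia 1 Hspa5 had 380 CPM per kilobase in replicate 1, below Hspa8 at 443.5, and 874 in replicate 2, the library with the granulocyte transcripts, above Hspa8 at 533. In leukemia 92 its mean was 234 CPM per kilobase, at rank 4.

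The first comparison asks how the leukemia differs from the normal pro-B cell. Few chaperone genes were called: 3 members rose in leukemia, 4 fell and 56 of the 63 tested were not called. A member not called is not shown to be unchanged. A log2 change of at least 1 in either direction was seen for 12 members (19.0%, where all genes gave 32.2%). The members that rose were Hspa1a, Hspb7 and Dnajc25, and those that fell were Hspa4l, Hspa12b, Dnajc7 and Dnaja4. Calls were made with edgeR's quasi-likelihood test at a Benjamini-Hochberg adjusted p under 0.05 over 15280 genes, with the libraries of each leukemia summed. Of all genes tested, 20.2% were called, 9.54% higher and 10.7% lower, and of the tested members 11.1% were called. The median log2 change of the tested members was -0.05 against 0.02 for all genes tested, and 63.5% of the members lay within 0.5 on the log2 scale against 46.8% of all genes. All 4 leukemia libraries lay above both pro-B libraries for 10 of the 63 members (15.9%) and below both for 17 (27.0%), where the shares over all genes tested were 23.4% and 27.3%. Without leukemia 1 replicate 2, 1 member was called higher and 5 lower, and without leukemia 1 replicate 1, 0 and 4. The shares over all genes in these fits are not reported here. Without either pro-B library edgeR called no gene of the table. The heat map of all tested members shows these levels by library.

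**Figure D1:**
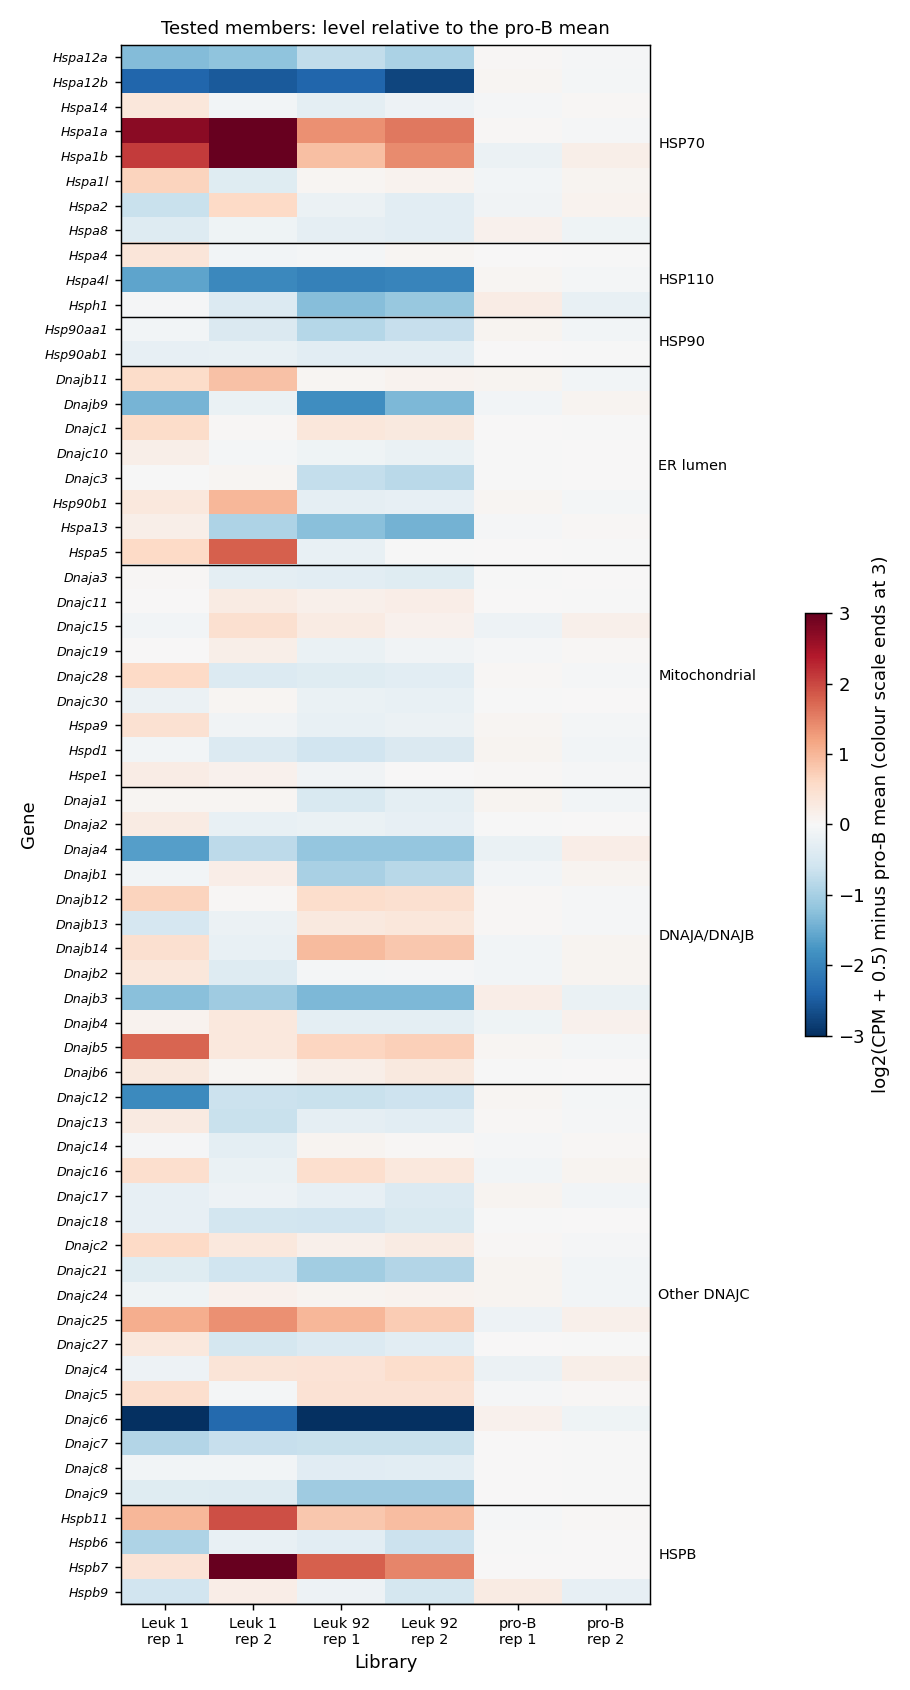
Level of each of the 63 tested members in the 6 libraries, as log2(CPM + 0.5) minus the mean of the 2 pro-B libraries, with genes in rows grouped by class and libraries in columns (red above, blue below the pro-B mean). Most rows are pale in all 4 leukemia columns. Hspa1a, Hspa1b and Hspb7 are red and Hspa12b, Hspa4l and Dnajc6 blue, and the 2 columns of leukemia 1 often differ from each other.

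Among the cytosolic HSP70 genes, 8 were tested, 1 rose and 1 fell. Hspa1a, which encodes the stress-inducible HSP70, stood at 4.35 and 7.46 CPM in leukemia 1, 1.44 and 1.73 in leukemia 92, and 0.259 and 0.234 in pro-B cells. Every leukemia library was above both pro-B libraries, and both libraries of leukemia 1 were above both of leukemia 92. Hspa1a rose by 3.90 on the log2 scale, with an SE of 0.84 (edgeR adjusted p = 0.048). The adjusted p was 0.072 without leukemia 1 replicate 1, 0.053 without leukemia 92 replicate 2 and 0.053 with total counts as library size. Hspa1b, the nearly identical neighbour of Hspa1a, stood at 7.15 and 21.99 CPM in leukemia 1, 2.84 and 4.30 in leukemia 92, and 1.07 and 1.52 in pro-B cells. The groups stood in the same order as for Hspa1a, but Hspa1b was not called (log2 change 2.81, SE 0.81, edgeR adjusted p = 0.086). DESeq2 gave an adjusted p of 0.0035 for it. Reads that match both copies can be lost or split in such counts, so the levels of Hspa1a and Hspa1b, which are low in all groups, are uncertain. Immediate early genes, such as Fos and Egr1, which respond to signalling and to handling of cells, also differed. Of these, 6 of 13 were called higher (46.2%, where all genes gave 9.54%) and none lower. Their summed level was 2143 to 4506 CPM in leukemia against 1549 to 1570 CPM in pro-B cells, with none at 0 in any library. Their part in the levels of Hspa1a and Hspa1b was not tested.

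Hspa8 stood at 1062 and 1276 CPM in leukemia 1, 1161 and 1118 in leukemia 92, and 1520 and 1273 in pro-B cells. The groups overlapped, and Hspa8 was not called (log2 change -0.26, SE 0.14, edgeR adjusted p = 0.24). Hspa2, an HSP70 known best from the testis, was not called either, at 11.4 and 28.4 CPM in the replicates of leukemia 1 and 14.8 to 19.9 CPM in the other 4 libraries. Hspa12b, a distant relative of HSP70 known from endothelium, stood at 0.569 and 0.480 CPM in leukemia 1, 0.575 and 0.327 in leukemia 92, and 5.29 and 4.87 in pro-B cells. Both leukemias were equally far below the pro-B libraries, and Hspa12b fell by 3.36 on the log2 scale, with an SE of 0.35 (edgeR adjusted p = 0.016). Its paralogue Hspa12a was lower too, at 0 to 0.247 CPM against 0.702 and 0.777, but was not called. Hspa14 and Hspa1l overlapped between leukemia and pro-B cells.

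HSP110 proteins, which exchange the nucleotide of HSP70, had 1 fall among 3 tested genes. Hspa4l stood at 19.2 and 15.0 CPM in leukemia 1, 13.9 and 14.6 in leukemia 92, and 61.2 and 56.4 in pro-B cells. The groups did not overlap, replicates differed little, and Hspa4l fell by 1.91 on the log2 scale, with an SE of 0.15 (edgeR adjusted p = 0.011). Of the members called, it had the smallest adjusted p, and it kept its call in every alternative that used both pro-B libraries. Its relatives were not called with both leukemias against pro-B cells. Hspa4 stood at 405 to 553 CPM in leukemia and 424 to 435 in pro-B cells. Hsph1 stood at 155 and 120 CPM in leukemia 1, 65.3 and 71.8 in leukemia 92 and 184 and 137 in pro-B cells. Leukemia 1 replicate 1 lay within the pro-B range, and leukemia 1 replicate 2 and leukemia 92 lay below it. For leukemia 92 alone Hsph1 was called lower than in pro-B cells (log2 change -1.23, edgeR adjusted p = 0.016).

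With both leukemias against pro-B cells, neither cytosolic HSP90 gene was called by edgeR or by DESeq2, and neither had an unadjusted p under 0.05. Hsp90ab1 stood at 2743 and 2796 CPM in leukemia 1, 2612 and 2609 in leukemia 92, and 3258 and 3221 in pro-B cells. All 4 leukemia libraries were below both pro-B libraries, by a small amount (log2 change -0.26, SE 0.10, edgeR adjusted p = 0.14). Hsp90aa1 stood at 768 and 601 CPM in leukemia 1, 451 and 504 in leukemia 92, and 864 and 765 in pro-B cells. Leukemia 1 replicate 1 lay within the pro-B range and the other 3 leukemia libraries below it (log2 change -0.49, SE 0.20, edgeR adjusted p = 0.15). For leukemia 92 alone against pro-B cells Hsp90aa1 was called lower (log2 change -0.77, edgeR adjusted p = 0.027). The summed level of both genes was 3063 to 3511 CPM in leukemia and 3986 to 4122 in pro-B cells.

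Of 12 tested J proteins of the DNAJA and DNAJB classes outside the ER lumen and mitochondria, 1 fell and 11 were not called. Dnaja4 stood at 0.122 and 0.628 CPM in leukemia 1, 0.370 and 0.374 in leukemia 92, and 1.18 and 1.75 in pro-B cells. All leukemia libraries were below both pro-B libraries, and it fell by 1.94 on the log2 scale, with an SE of 0.41 (edgeR adjusted p = 0.045). The call was lost without leukemia 1 replicate 1 (0.11), without leukemia 1 replicate 2 (0.079) and with DESeq2 (0.053), and Dnaja4 shares exonic bases with Wdr61 on the opposite strand, whose reads a count without strand would mix in. Dnaja1, the main cytosolic partner of HSPA8, stood at 185 and 183 CPM in leukemia 1, 128 and 143 in leukemia 92, and 186 and 167 in pro-B cells. Dnajb1, the classical heat-inducible HSP40, stood at 120 and 145 CPM in leukemia 1, 64.4 and 70.6 in leukemia 92, and 120 and 133 in pro-B cells. For both genes leukemia 1 overlapped the pro-B range while leukemia 92 lay below it, and neither was called with both leukemias against pro-B cells (edgeR adjusted p = 0.59 and 0.52). For leukemia 92 alone Dnajb1 was called lower than in pro-B cells (log2 change -0.90, edgeR adjusted p = 0.014) and Dnaja1 was not (0.076). Dnajb6, which keeps aggregating proteins soluble, stood at 62.8 to 74.1 CPM in leukemia and 59.8 to 61.05 in pro-B cells (log2 change 0.21, edgeR adjusted p = 0.27). Dnajb5, Dnajb12 and Dnajb6 were above both pro-B libraries in all 4 leukemia libraries. Of these, Dnajb5 had the smallest edgeR adjusted p, 0.053, at 42.8 and 15.6 CPM in leukemia 1, 19.9 and 20.7 in leukemia 92, and 12.99 and 12.01 in pro-B cells.

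Among 17 tested DNAJC members outside the ER lumen and mitochondria, 1 rose and 1 fell. Dnajc25, a little-studied membrane J protein, stood at 28.1 and 33.8 CPM in leukemia 1, 26.2 and 22.05 in leukemia 92, and 11.5 and 14.4 in pro-B cells. All leukemia libraries were above both pro-B libraries, and it rose by 1.10 on the log2 scale, with an SE of 0.22 (edgeR adjusted p = 0.040). Leaving out 1 library moved its adjusted p to 0.062 (leukemia 1 replicate 1), 0.052 (leukemia 1 replicate 2) or 0.054 (leukemia 92 replicate 1), and total counts as library size gave 0.061. It shares exonic bases with Gm20503 on the same strand. Dnajc7, a J protein with tetratricopeptide repeats that binds both HSP70 and HSP90, stood at 198 and 223 CPM in leukemia 1, 229 and 229 in leukemia 92, and 364 and 360 in pro-B cells. The leukemia libraries lay close together and below both pro-B libraries, and Dnajc7 fell by 0.71 on the log2 scale, with an SE of 0.13 (edgeR adjusted p = 0.035, and 0.052 without leukemia 1 replicate 2). Part of its exons lies opposite those of Nkiras2.

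Other DNAJC genes showed differences that were not called with both leukemias against pro-B cells. For leukemia 92 alone, Dnajc9 (log2 change -1.06, edgeR adjusted p = 0.0040), Dnajc21 (-0.97, 0.0115) and Dnajc6 (-8.07, 0.028) were called lower. None of them was called for leukemia 1 alone. Dnajc6, the neuronal clathrin uncoating factor auxilin, stood at 0 to 1.03 CPM in leukemia and 7.92 and 6.59 in pro-B cells (edgeR adjusted p = 0.082). Dnajc9, which escorts histones H3 and H4, stood at 189 and 187 CPM in leukemia 1, 116 and 116 in leukemia 92, and 243 and 242 in pro-B cells. Its 3 groups did not overlap, in the order leukemia 92, leukemia 1, pro-B, but the leukemias as a group were not called lower than pro-B cells (log2 change -0.68, SE 0.24, edgeR adjusted p = 0.13). Dnajc21, which acts in ribosome assembly, was lower in all 4 leukemia libraries, at 47.4 to 76.3 against 92.3 and 104 CPM (edgeR adjusted p = 0.074). Dnajc2, which sits on the ribosome, was above both pro-B libraries in all 4, at 150 to 205 against 132 and 137 CPM, and was not called.

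Small heat shock genes were low or near the floor. Of 8 members 4 were tested and 1 rose. Hspb7, a small heat shock protein known from heart and muscle, had no count in either pro-B library and 212 counts in leukemia. It stood at 0.162 and 5.88 CPM in leukemia 1 and at 1.23 and 0.888 CPM in leukemia 92, so most of its counts came from leukemia 1 replicate 2. Against a floor of 3 counts over both pro-B libraries, the pooled leukemia libraries were at least 38.2-fold higher (edgeR adjusted p = 0.043). This fold does not hold for leukemia 1 replicate 1, which had 4 counts. Taken alone against pro-B cells, neither leukemia had Hspb7 called (edgeR adjusted p = 0.11 for leukemia 1 and 0.13 for leukemia 92). Without leukemia 1 replicate 2, the library with the granulocyte transcripts, Hspb7 did not pass the filter, and without leukemia 1 replicate 1 its adjusted p was 0.082. Hspb1, the widely expressed HSP27, was almost absent, with 8 counts over the leukemia libraries and 1 over the pro-B libraries, a ratio of 4.32 whose exact 95% counting interval ran from 0.580 to 192. Hspb2 and Hspb8 had 1 count each in leukemia and 11 and 18 in pro-B cells. Hspb6, a small heat shock protein known from muscle, stood at 2.52 to 4.36 CPM in leukemia and 5.18 and 5.22 in pro-B cells, and was not called. Hspb11, which despite its name belongs to the transport machinery of cilia, stood at 13.7 and 26.7 CPM in leukemia 1, a mean of 12.5 CPM in leukemia 92, and 6.37 and 6.82 in pro-B cells (log2 change 1.32, SE 0.31, edgeR adjusted p = 0.055).

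None of the 9 tested mitochondrial members was called by edgeR or DESeq2, and none had an unadjusted p under 0.05. Their log2 changes lay between -0.36 and 0.22. Hspd1 stood at 437 and 349 CPM in leukemia 1, 311 and 344 in leukemia 92, and 486 and 438 in pro-B cells. Hspe1, its lid, stood at 151 and 140 CPM in leukemia 1, 119 and 129 in leukemia 92, and 132 and 126 in pro-B cells. All leukemia libraries were below pro-B cells for Hspd1, the highest of them by less than 1 CPM, and the groups overlapped for Hspe1. Hspa9 stood at 652 CPM in leukemia 1 replicate 1, 409 to 439 CPM in the other 3 leukemia libraries and 494 and 459 CPM in pro-B cells. Its log2 change of 0.01 takes the opposite sign in several alternatives. Hspd1 and Hspe1 are transcribed head to head. The stretch between them that carries the binding pattern of heat shock factors is shown because it is common to both genes and is among the few exact matches in the family. It lies at chr1:55088053-55088082 of GRCm38.p6, on the plus strand, 95 to 66 bases before the RefSeq start of Hspe1, with the matched letters in capitals.
Hspe1: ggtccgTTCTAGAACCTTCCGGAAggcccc
The pattern searched on both strands was GAA, TTC and GAA with 2 free letters between each, in RefSeq promoters that run from 250 bases before to 50 after a start. It overlaps itself here, once on each strand, and matches 0.603% of 32851 mouse promoters. Of the 58 members with a promoter entry it matched Hspd1, Hspe1, Dnajb6 and Hsph1. None of the 4 was called in either comparison, but Hsph1 was called lower for leukemia 92 alone against pro-B cells. The promoters of Hspa1a, Hspa1b and Dnajb1 have entries in that table but held no exact match, which says only that these letters are not in the window.

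**Figure D2:**
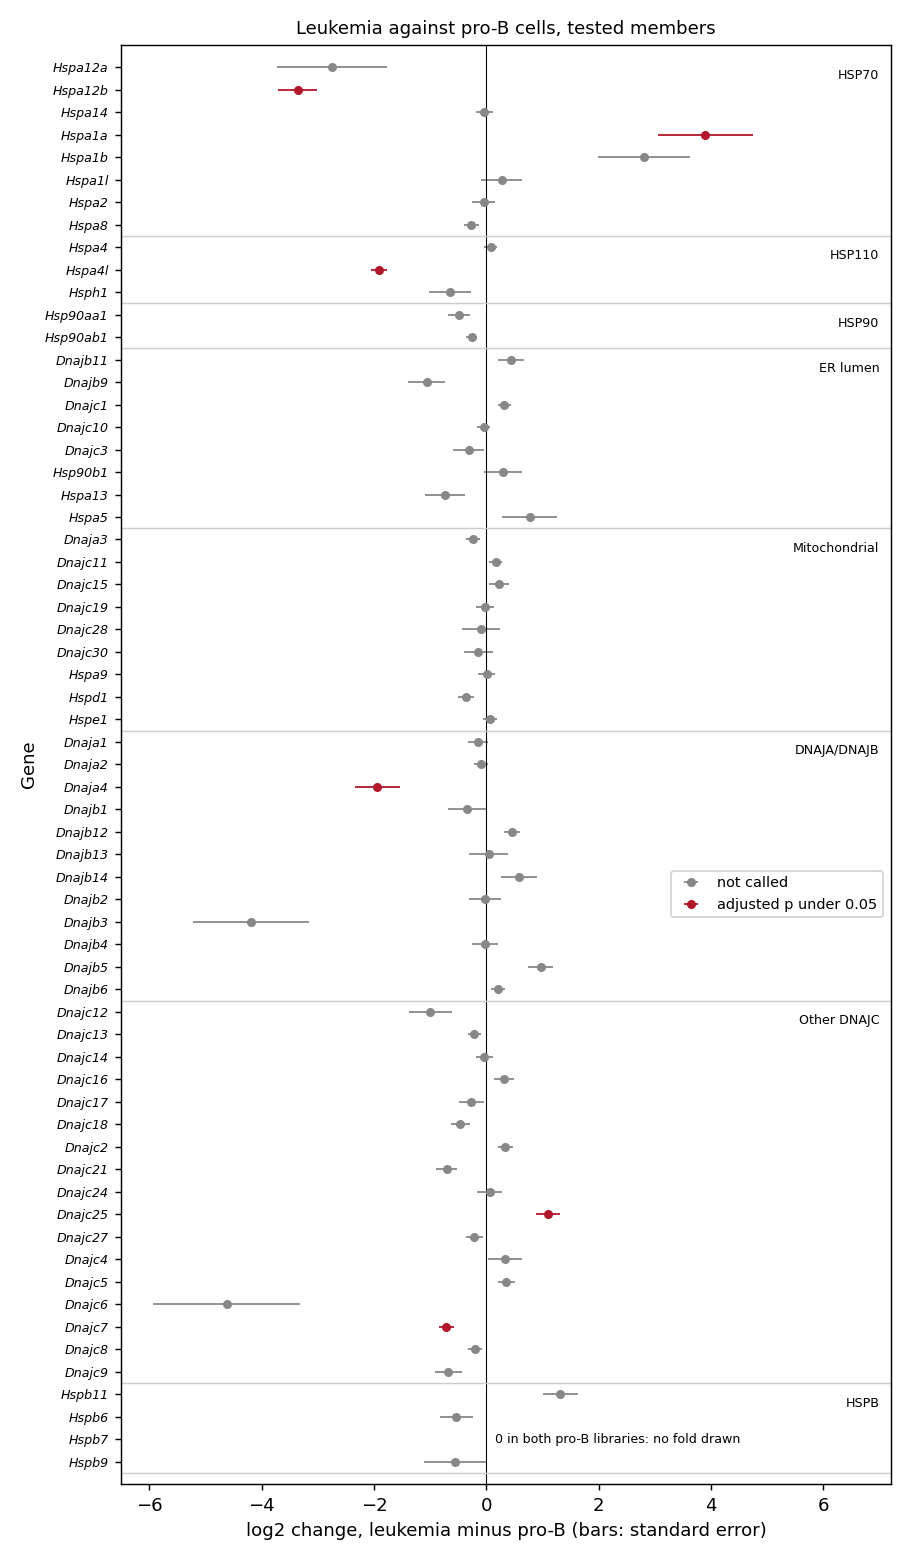
Log2 change of each tested member, leukemia minus pro-B cells, from the edgeR fit on summed leukemia libraries, with bars of 1 standard error, members grouped by class, and called members in red. Hspb7 has no point because both pro-B libraries held no count. Points of the HSP90 and mitochondrial classes lie close to 0, and the called members are spread over the HSP70, HSP110, DNAJA/DNAJB and DNAJC classes.

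The class of the ER lumen, here called the ER members, held 8 tested genes. None was called by edgeR with both leukemias against pro-B cells. Of them, 1 had an unadjusted edgeR p under 0.05 and 1 was called lower by DESeq2. Taken alone against pro-B cells, leukemia 92 had Dnajc3 called lower (log2 change -0.76, edgeR adjusted p = 0.0100) and leukemia 1 had Dnajb11 called higher (log2 change 0.72, edgeR adjusted p = 0.036). Hspa5 stood at 1426 and 3280 CPM in leukemia 1, 818 and 942 in leukemia 92, and 957 and 938 in pro-B cells. Leukemia 1 was above both other groups in each replicate, and leukemia 92 overlapped the pro-B range. Over both leukemias the log2 change against pro-B cells was 0.78 (SE 0.49, edgeR adjusted p = 0.31). It was 0.27 without leukemia 1 replicate 2 and -0.11 for leukemia 92 alone. Hsp90b1 stood at 1033 and 1654 CPM in leukemia 1, 684 and 700 in leukemia 92, and 865 and 797 in pro-B cells, again highest in leukemia 1 and here lowest in leukemia 92. Its log2 change against pro-B cells was 0.30 (SE 0.33, edgeR adjusted p = 0.56), 0.04 without leukemia 1 replicate 2 and -0.26 for leukemia 92 alone.

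The J proteins of BiP did not move as 1 group against pro-B cells. Dnajb11, or ERdj3, stood at 244 and 304 CPM in leukemia 1, 174 and 180 in leukemia 92, and 176 and 157 in pro-B cells. Dnajc3, or p58IPK, which also restrains the stress kinase PERK, stood at 193 and 203 CPM in leukemia 1, 118 and 111 in leukemia 92, and 194 and 194 in pro-B cells. Leukemia 1 was thus above the pro-B range for Dnajb11 and level with it for Dnajc3, while leukemia 92 was level for Dnajb11 and lower for Dnajc3. Dnajb9, or ERdj4, which restrains the stress sensor IRE1, stood at 54.1 and 124 CPM in leukemia 1, 38.6 and 55.9 in leukemia 92, and 134 and 152 in pro-B cells. It was the ER member with all 4 leukemia libraries below both pro-B libraries (log2 change -1.06, SE 0.34, edgeR adjusted p = 0.10). Without leukemia 1 replicate 2 it was called lower (log2 change -1.51, edgeR adjusted p = 0.016), and DESeq2 also called it (0.013). Hspa13, an ER HSP70 that lacks the client-binding domain, stood at 65.9 and 30.6 CPM in leukemia 1, 23.9 and 21.6 in leukemia 92, and 56.8 and 59.5 in pro-B cells. Dnajc10, a J protein with disulfide reductase activity, stood at 109 to 142 CPM in leukemia and 125 to 127 in pro-B cells, and Dnajc1 at 43.0 to 61.9 against 41.5 and 42.1 CPM. The panels for the ER members show all 8 genes by library.

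**Figure D3:**
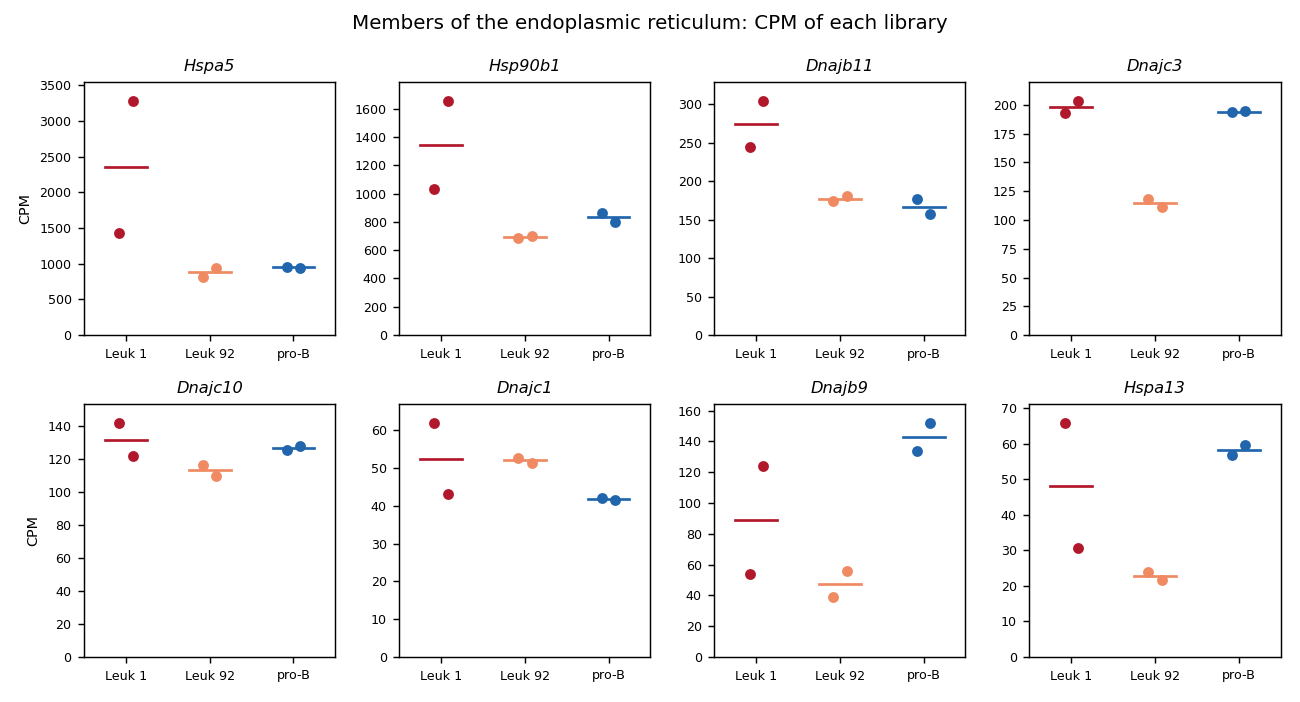
CPM of the 8 ER members in each library (points) with the mean of the 2 libraries of a group (line), for leukemia 1, leukemia 92 and pro-B cells, each axis starting at 0. Hspa5, Hsp90b1 and Dnajb11 are highest in both libraries of leukemia 1, with a wide gap between its replicates for Hspa5, and Dnajb9 is highest in pro-B cells.

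The promoters of Hspa5, Hsp90b1 and Dnajc3 are shown because they hold the ER stress response element, the site known for ATF6 and its partner NF-Y. The pattern searched on both strands was CCAAT and CCACG with 9 free letters between them, in capitals below, and they do not overlap a match of the heat shock pattern. Each line gives the 250 bases before the RefSeq start, 5′ to 3′ on the gene's strand, from GRCm38.p6. Hspa5 lies at chr2:34771840-34772089 on the plus strand, Hsp90b1 at chr10:86705445-86705694 on the minus strand and Dnajc3 at chr14:118937682-118937931 on the plus strand.
Hspa5: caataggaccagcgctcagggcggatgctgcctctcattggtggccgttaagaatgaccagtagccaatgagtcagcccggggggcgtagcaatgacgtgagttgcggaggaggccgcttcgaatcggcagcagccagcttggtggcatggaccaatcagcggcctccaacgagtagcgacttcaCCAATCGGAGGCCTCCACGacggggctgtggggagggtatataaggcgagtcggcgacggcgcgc
Hsp90b1: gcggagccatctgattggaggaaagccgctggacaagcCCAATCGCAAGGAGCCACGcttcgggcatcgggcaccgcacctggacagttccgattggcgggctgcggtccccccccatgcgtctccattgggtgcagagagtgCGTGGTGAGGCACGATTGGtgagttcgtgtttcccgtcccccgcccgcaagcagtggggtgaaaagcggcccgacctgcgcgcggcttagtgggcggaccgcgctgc
Dnajc3: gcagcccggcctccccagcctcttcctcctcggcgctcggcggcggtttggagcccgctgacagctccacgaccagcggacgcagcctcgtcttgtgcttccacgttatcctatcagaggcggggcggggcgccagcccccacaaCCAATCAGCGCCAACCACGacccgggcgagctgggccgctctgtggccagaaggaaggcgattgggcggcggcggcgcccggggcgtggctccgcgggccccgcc
These 3 genes were the members with a match, of 58 with an entry, and the pattern occurs in 0.119% of all promoters. Hsp90b1 has 2 matches, 1 on each strand. Hspa13 had no entry. A match describes letters in a window and shows neither a bound site nor a cause.

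The second comparison sets leukemia 92 against leukemia 1 within the same model. Chaperone genes were mostly lower in leukemia 92, but few passed the test: Dnajb1, Dnajc3 and Dnajc9 fell, no member rose and 60 were not called. With edgeR on all 6 libraries, 3.09% of 14979 genes were called, 1.82% higher and 1.27% lower, against 4.76% of the members, and at an unadjusted p under 0.05 there were 18 members (28.6%, where all genes gave 25.1%). With DESeq2, 1 member was higher and 12 were lower, but the share of all genes that DESeq2 called is not reported here. The log2 change was negative for 49 of 63 members (77.8%, against 55.5% of all genes tested), with a median of -0.26 against -0.08 for all genes. Both leukemia 92 libraries lay below both leukemia 1 libraries for 30 members (47.6%, where all genes gave 25.8%) and above them for 6 (9.52%, where all genes gave 25.4%). The wide gap between the leukemia 1 replicates enters this fit. Without leukemia 1 replicate 1, 9 members were called higher and 22 lower, and without replicate 2, 8 and 30. In those fits the spread comes from leukemia 92 and pro-B cells, the lone leukemia 1 library is assumed to vary like them, and calls over all genes climbed as well, to 3869 higher and 4106 lower without replicate 1 and 3909 and 4224 without replicate 2. Without either leukemia 92 or either pro-B library edgeR called no gene of the table.

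Dnajb1 was lower in leukemia 92 than in leukemia 1, at the values above, with a fall of 0.97 on the log2 scale, with an SE of 0.15 (edgeR adjusted p = 0.048, and 0.052 with total counts as library size). Dnajc3 fell by 0.79 (SE 0.11, edgeR adjusted p = 0.043) and Dnajc9 by 0.70 (SE 0.11, edgeR adjusted p = 0.047). For all 3 genes, replicates of each leukemia lay close together and the leukemias did not overlap. Each kept its direction in every alternative tried, but the calls were not stable. Without the filter on low counts the edgeR adjusted p of Dnajc3 was 0.057 and that of Dnajc9 0.069. With a minimum count of 50 that of Dnajb1 was 0.055. With the replicate number as a block in the fit none of the 3 was called. Leukemia 1 overlapped the pro-B range for Dnajc3 and Dnajb1 and lay below it for Dnajc9. Hspa1a (log2 change -1.90, edgeR adjusted p = 0.073), Hspa1b (-2.03, 0.14) and Hsph1 (-1.01, 0.078) were not called, with both leukemia 92 libraries below both of leukemia 1. The same order held for Hsp90aa1 (-0.52, edgeR adjusted p = 0.15) and, by a small amount, for Hsp90ab1 (-0.09, 0.59), and neither was called. Hspa8 (-0.04, edgeR adjusted p = 0.90) overlapped between the leukemias.

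**Figure D4:**
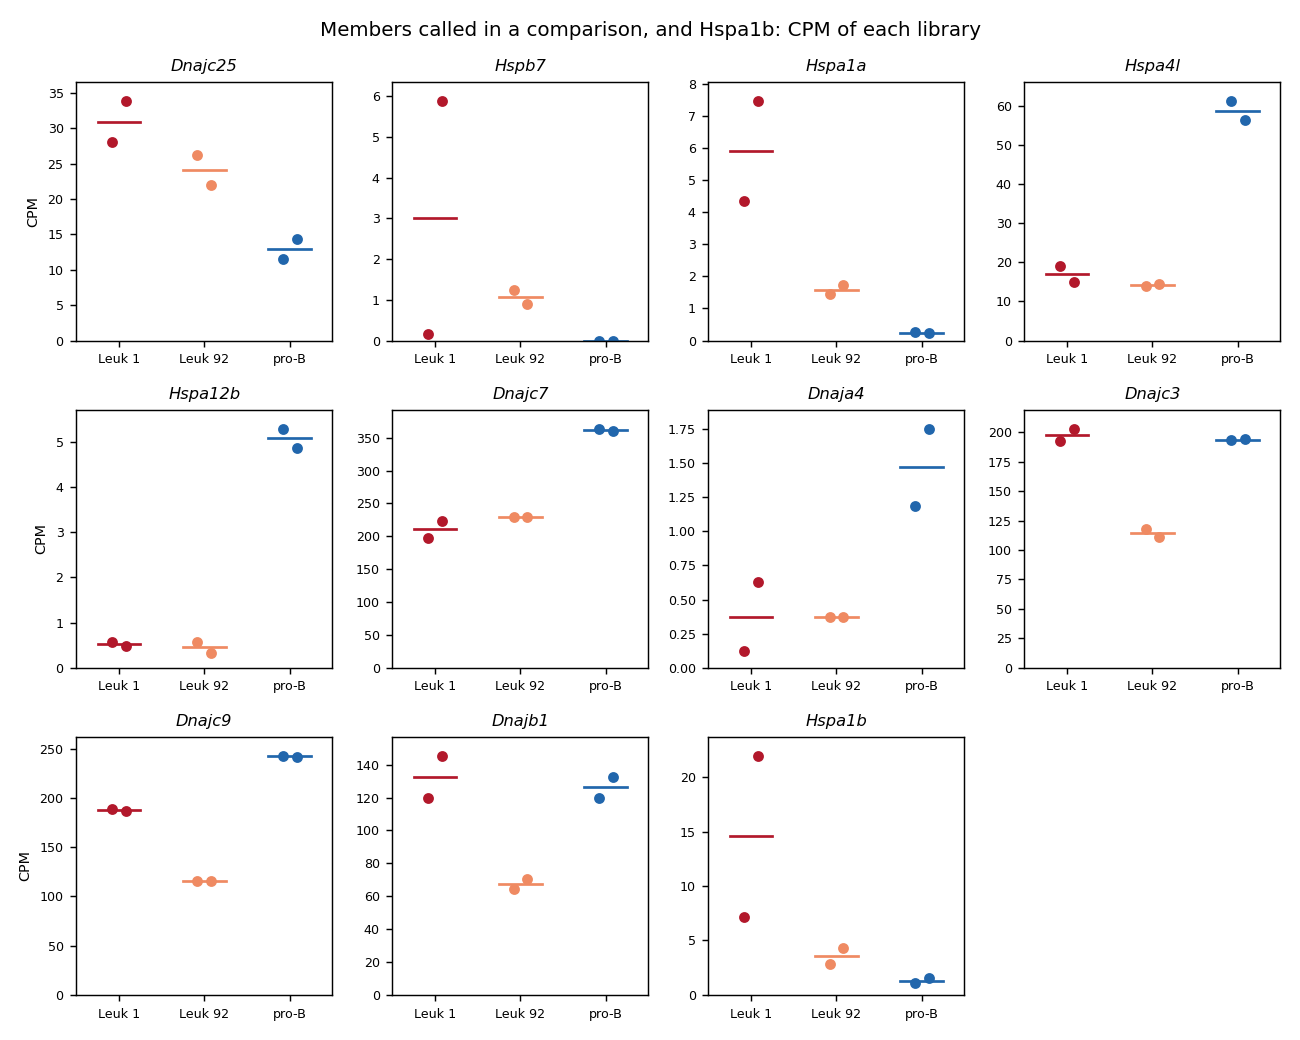
CPM of each member called in either comparison, and of Hspa1b, in every library (points) with the mean of the 2 libraries of a group (line), each axis starting at 0. Dnajc25, Hspb7 and Hspa1a are higher in leukemia, Hspa4l, Hspa12b, Dnajc7 and Dnaja4 are highest in pro-B cells, and Dnajc3, Dnajc9 and Dnajb1 are lowest in leukemia 92.

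The ER class differed most between the leukemias by its median. All 8 members of this ER lumen class had a negative log2 change, where all genes gave 55.5%, and their median was -0.85. Of the 8, 1 was called and 5 had an unadjusted edgeR p under 0.05, where all genes gave 25.1%. DESeq2 called 4 lower, again without its share over all genes. In 6 of the 8 both leukemia 92 libraries lay below both leukemia 1 libraries, where all members gave 47.6% and all genes 25.8%. The class covers the ER lumen, and no class was made for the ER membrane. The J proteins Dnajb14, Dnajc16, Dnajc14, Dnajb12 and Dnajc18, counted in other classes, had log2 changes of 0.71, 0.23, 0.22, 0.12 and -0.12. Hspa5 had a log2 change of -1.42 (SE 0.40, edgeR adjusted p = 0.12), Hsp90b1 of -0.96 (SE 0.24, adjusted p = 0.10) and Dnajb11 of -0.63 (SE 0.16, adjusted p = 0.096). Without leukemia 1 replicate 2 these changes were -0.70, -0.58 and -0.46, and without replicate 1 they were -1.89, -1.25 and -0.77. For these genes the difference was thus larger with replicate 2 alone than with replicate 1 alone, in the same direction. The part of the granulocyte transcripts of replicate 2 in it was not tested. Dnajb9 moved from -0.92 to -0.20 when replicate 2 was left out. Summed over the class, ER members stood at 3220 and 5759 CPM in leukemia 1, 2025 and 2171 in leukemia 92, and 2550 and 2467 in pro-B cells. Mitochondrial members had a negative change in 8 of 9 cases, with a median of -0.23, and none was called by edgeR or DESeq2 or had an unadjusted p under 0.05. The bars of class sums show both classes by library.

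**Figure D5:**
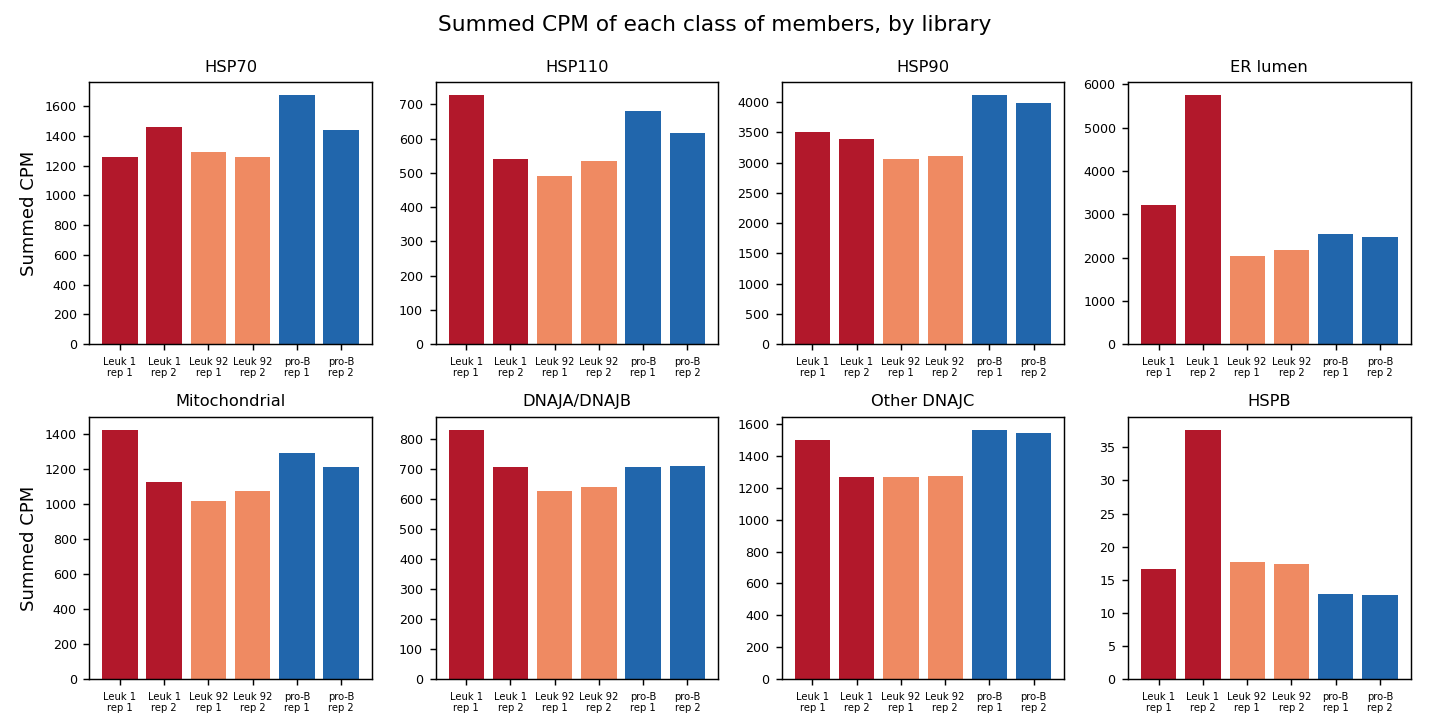
Summed CPM of the members of each class in each library, with axes from 0 that differ between panels. The ER sum is highest in leukemia 1 replicate 2 at 5759 CPM, the HSP90 sum is highest in the 2 pro-B libraries, and the HSPB sum stays under 40 CPM in every library.

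Regulators and partners of the chaperones were read from gene lists. Of 5 tested genes of heat shock factors (Hsf1, Hsf2 and Hsf4) and their binding proteins (Hsbp1 and Hsf2bp) edgeR called none in either comparison. Against pro-B cells 3 had an unadjusted p under 0.05 and 1 was higher by DESeq2, with 0 by both between the leukemias. The 3 were the binding proteins Hsbp1 (log2 change 0.40) and Hsf2bp (2.39) and 1 factor, Hsf4 (-1.29), which stayed under 0.7 CPM in every library. Hsf1, the main heat shock factor, stood at 44.9 to 55.0 CPM in leukemia and 43.7 and 45.5 in pro-B cells (edgeR adjusted p = 0.34). Hsf2 stood at 28.2 and 11.2 CPM in leukemia 1, 9.49 and 9.44 in leukemia 92, and 19.8 and 20.3 in pro-B cells. Of 27 cochaperones of HSP70 and HSP90, 1 rose in leukemia, Fkbp4 fell and 25 were not called. Fkbp4, an immunophilin that joins HSP90 to steroid receptors, stood at 133 and 160 CPM in leukemia 1, 87.7 and 95.4 in leukemia 92, and 287 and 260 in pro-B cells (log2 change -1.20, SE 0.25, edgeR adjusted p = 0.045, and 0.097 without leukemia 1 replicate 1). None of 15 subunits of the CCT chaperonin and prefoldin was called by edgeR or DESeq2, with 2 at an unadjusted p under 0.05. None of 15 mitochondrial proteases, HSP70 partners and other quality-control genes was called by edgeR, with 3 at an unadjusted p under 0.05 (by DESeq2, 1 rose and 1 fell). Between the leukemias edgeR called no gene of the cochaperone, chaperonin or mitochondrial lists, where 4, 6 and 1 had an unadjusted p under 0.05. DESeq2 gave 3 lower, 5 lower and 1 higher, without its share over all genes.

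Of 30 ER folding and unfolded protein response genes 5 rose in leukemia, 1 fell and 24 were not called. This is a share of 20% called, near the 20.2% of all genes tested, and the median log2 change was 0.59 against 0.02 for all genes. Edem1, which sends misfolded glycoproteins to degradation, stood at 601 and 356 CPM in leukemia 1, 581 and 600 in leukemia 92, and 143 and 142 in pro-B cells, and rose by 1.91 (SE 0.18, edgeR adjusted p = 0.015). Ern1, the stress sensor IRE1 that DNAJB9 restrains, stood at 21.9 and 19.2 CPM in leukemia 1, 20.1 and 20.6 in leukemia 92, and 88.0 and 102 in pro-B cells, and fell by 2.22 on the log2 scale, with an SE of 0.14 (edgeR adjusted p = 0.0085). Both genes separated leukemia from pro-B cells in every library. Ppp1r15a, which reverses the translational arm of the response, was called (edgeR adjusted p = 0.020), but it stood at 58.7 CPM in leukemia 1 replicate 1, below the pro-B level of 99.7 and 104, and at 311 CPM in replicate 2. Without replicate 2 its log2 change was 0.35 instead of 0.94, with an adjusted p of 0.74, and without replicate 1 the adjusted p was 0.055. Between the leukemias none of these 30 genes was called higher in leukemia 92 and 4 were called lower (13.3%, where all genes gave 1.27%). They were Herpud1 (log2 change -1.31, edgeR adjusted p = 0.034), Atf4 (-1.02, 0.040), Xbp1 (-0.90, 0.040) and Canx (-0.76, 0.045). DESeq2 called 16 lower, but its share over all genes is not reported here. The 1.27% is edgeR's share and is no background for that count.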

How the data were processed

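RNA was sequenced in 6 libraries from TruSeq RNA kits, 2 for each of 3 groups. The deposited table gives raw counts of reads for each gene in each library. Per the submitters' processing notes, the tools were STAR 2.4, HTSeq 0.6.1 and DESeq2, and the build mm9. Neither annotation nor strandedness is stated, so overlapping genes and near-identical copies are uncertain. Entries that name no gene held 34.0% to 39.6% of a library's summed entries and were left out. Counting error and the 3-count floor cover counting alone. Gene counts of 22153444 to 27444759 per library set the precision.

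All 33924 genes were fitted with edgeR 4.0.16 and limma 3.58.1 under R 4.3.3, after filterByExpr (at least 10 counts) and TMM scaling, with the robust quasi-likelihood test. P-values were Benjamini-Hochberg adjusted over all genes tested, and calls lie under 0.05. Leukemia was compared with pro-B cells after summing the libraries of each leukemia. Leukemia 92 was compared with leukemia 1 in a fit of all 6 libraries. Standard errors were taken from the F statistics. Code was tested on simulated counts. Alternatives were DESeq2 1.42.0, median-of-ratios (RLE) size factors, total counts without TMM, no filter, a minimum count of 50, leaving out each library, 6-library fits with and without a replicate block, and each leukemia alone.

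Members, classes and lists were chosen with earlier results of these data known. Named were 20 core members, called members with a mean of at least 1 CPM in the higher group, up to 2 called genes of a list in each direction, Hsf1 and Hsf2. All others were chosen after their values were seen. Some genes that the rule names or the lists hold are not reported here. Promoter sequences come from RefSeq on GRCm38.p6, matched by symbol (58 of 78 members), and exon lengths from GENCODE M21. No coordinates of mm9 were used. Of 159 list entries 158 matched, 1 of them by a synonym.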

Additional observations from a re-analysis of the deposited data

Results flagged for a closer look

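Among the 4 leukemia libraries Hspa9, the mitochondrial HSP70, had 1 value far from the others: 652 CPM in leukemia 1 replicate 1 against 409 to 439 CPM, a gap of 0.878 of the whole range. Chance gives such a gap in about 1 of 20 groups of independent values from 1 population. These 4 libraries are replicates of different leukemias, so that share does not measure how unusual the value is.

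Leukemia 92 and leukemia 1 differed in 3 members and 4 genes of the ER list, each by edgeR's test of the difference itself. The log2 differences, leukemia 92 minus leukemia 1, were -0.97 for Dnajb1, -0.79 for Dnajc3 and -0.70 for Dnajc9 among the members. They were -1.31 for Herpud1, -1.02 for Atf4, -0.90 for Xbp1 and -0.76 for Canx in the ER list.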

How the results depend on the processing

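With other settings these numbers of members were called higher and lower in leukemia than in pro-B cells, in place of 3 and 4 (7 in all). For most settings the share over all genes is not reported here, so the counts describe the members only. DESeq2 called 6 and 8 (14), total counts 1 and 4, the 6-library fit without a replicate block 4 and 11 (15), leukemia 92 alone 2 and 11 (13) and leukemia 1 alone 5 and 5 (10). Leaving out 1 library gave 0 to 4 higher, 0 to 6 lower and 0 to 10 in all, with 0 where a pro-B library was missing, and medians of -0.14 to -0.01. The median of -0.05 became -0.20 with total counts, where that of all genes moved from 0.02 to -0.14, and -0.26 for leukemia 92 alone. For leukemia 92 against leukemia 1, in place of 3 lower, DESeq2 called 1 higher and 12 lower (13), no filter gave 1, and leaving out 1 library gave 0 to 9 higher, 0 to 30 lower and 0 to 38 in all, with medians of -0.29 to -0.12. RLE size factors changed no count. DESeq2 gave no adjusted p for 1743 genes in the second comparison. The replicate numbers do not pair the libraries (deviations of same-numbered libraries correlated at -0.16, 0.06 and -0.03). With the replicate block, 3 members were called higher and 9 lower (12) against pro-B cells and 0 between the leukemias, where Dnajb1, Dnajc3 and Dnajc9 had adjusted p of 0.11, 0.12 and 0.14, and Hspb7 had 0.13 and Dnaja4 0.076 against pro-B cells.

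Directions turned for members with small changes, and the cause was not tested. Against pro-B cells Hspa9 became -0.0093 with DESeq2 and with RLE, -0.15 with total counts, -0.0025 and -0.0084 in the 6-library fits without and with the block, and -0.20 for leukemia 92 alone. With 1 library left out it ran from -0.14 to 0.15 and Hspa2 from -0.45 to 0.26. Hspe1 became -0.090 with total counts. For leukemia 92 alone Hspe1 became -0.052, Hspa5 -0.11 and Hsp90b1 -0.26. For leukemia 1 alone Hspa2 became 0.10, Dnaja1 0.059, Dnajb1 0.072 and Dnajc3 0.030. Between the leukemias, with 1 library left out, Hspa2 ran from -0.86 to 0.45 (adjusted p = 0.032 at the upper end, without leukemia 1 replicate 2), Hspa8 from -0.15 to 0.10 and Dnajb6 from -0.064 to 0.18.

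With 2 libraries a group, and leukemia 1 replicates that differ more than the other pairs, small changes could not be resolved. Members under about 0.1 CPM are at the level of 3 counts in 1 library.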

Other observations

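Pseudogene entries stayed at the floor, with a summed level of 0.162 to 0.374 CPM in leukemia and 0.156 to 0.444 in pro-B cells. Dnajb7 reached 0.327 CPM in 1 library and Dnajb8 had 1 count in all. Dnajb3 stood at 0 to 0.111 CPM in leukemia and 0.963 and 0.624 in pro-B cells. Dnajb13, known from sperm flagella and cilia, stood at 6.46 and 8.28 CPM in leukemia 1, 11.6 and 12.1 in leukemia 92 and 9.74 and 9.16 in pro-B cells, and part of its exons lies opposite those of Ucp2.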
